A study of Mus musculus with 14 samples.

Results

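Airway cartilage genes were followed as a set of 10 named genes: Col2a1, Col9a1, Col9a2, Col9a3, Acan, Matn1, Matn4, Hapln1, Comp and Sox6. They were found by gene symbol in the annotation of the array platform, and all 10 were among the 18193 genes that the arrays measured by at least 1 probe set with a single symbol. A probe set is the group of short oligonucleotides that reads a transcript on the array. The 10 genes had 19 of the 45037 probe sets, and each gene was represented by its probe set of highest mean level. In Adult against E12 lung, 6 of these genes were lower, where 30.2% of all genes were, and 4 higher, where 35% were. The range ran from a 14.6-fold fall of Hapln1 to a 3.10-fold rise of Matn4. Among the 4, Matn1 lay between 3.35 and 3.73 on all arrays, and its rise did not hold after quantile normalization.

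The cartilage rings and plates of the trachea and large bronchi are laid down by chondrocytes, which condense from the mesenchyme around the airway tube and keep it open. Their matrix is built on fibrils of type II collagen that carry type IX collagen on their surface, and on aggrecan, a large proteoglycan bound to hyaluronan through link protein. Sox9 turns on this program in chondrocytes, and Sox5 and Sox6 act with it on the promoters and enhancers of the matrix genes.

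RNA of whole lungs of ICR mice, an outbred strain, had been measured on 14 Affymetrix whole-genome mouse arrays, 2 for each of 7 time points. The time points were embryonic days 12, 14, 16 and 18 (E12 to E18, with the day of the plug counted as day 0), postnatal days 2 and 10 (P2 and P10) and postnatal day 30 (Adult). No mouse carried a named allele or received an agent. Lungs of an age were pooled. The number of lungs in a pool, whether the 2 arrays of an age came from separate pools, and whether the trachea was kept are not given in the sources used here, so each p measures the spread between these arrays, which may be technical. In whole-lung RNA, fewer chondrocytes and less RNA per chondrocyte cannot be told apart, and neither can airway cartilage and cartilage of an adhering rib.

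Values are log2 array values as deposited, and ran from 2.53 to 14.99 with array medians between 6.55 and 6.62. By the sum of squared differences over all probe sets, all 14 arrays were nearest to their own replicate. Replicates correlated with r from 0.9953 to 0.9977. The level of a probe set depends on its oligonucleotides, so levels are compared between ages of a gene and not between genes. A value above 7 was used as the mark of a well-measured gene. Differences were tested with limma over all 45037 probe sets, and "passed" means an adjusted p under 0.05.

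Some arrays stood apart. On E16 replicate 1 the heart ventricle gene Myl2 was at 12.63, against 8.84 on E16 replicate 2, and the thymus gene Rag1 was at 5.80 against 3.23. The mean of the 10 listed heart genes was 10.30 and 7.87 on those arrays, and from 6.27 to 9.16 on the other arrays. On E12 replicate 2 the muscle regulator Myog was at 6.16, against 5.22 on replicate 1, and the mean of the 10 listed skeletal muscle genes was 5.88, against 5.33 to 5.77 on all other arrays. The labels call every array female. Xist, the RNA that silences an X chromosome in female cells, lay between 11.97 and 13.32 at E12 to E18 and in Adult and between 6.88 and 7.41 at P2 and P10, and the Y-linked Eif2s3y lay between 6.95 and 8.61 on all arrays but E16 replicate 2 and both Adult arrays, where it was 2.86 to 3.60. Low Xist at P2 and P10, and Y-linked RNA on all embryonic arrays but E16 replicate 2, went against the label. From E18 to P2 Xist differed by -5.01 (adjusted p 3.93e-08), while none of the measured Y-linked genes passed (adjusted p 0.464 to 0.822). Xist and the measured Y-linked genes both changed together with age from P10 to Adult and from E16 to E18. In that last step Eif2s3y was 2.74 higher (adjusted p 0.0151) and Xist 0.74 lower (adjusted p 0.0235). The mean of the measured sex-linked genes was 8.19 on E16 replicate 1 and 6.22 on E16 replicate 2, against 8.55 and 8.68 at E18. In Adult against E12, Eif2s3y differed by -4.18 (adjusted p 0.000470), while Xist did not pass (adjusted p 0.288). The Y-linked Kdm5d differed by -2.04 from E12 to E16 (adjusted p 0.0318) and by -1.86 from E16 to Adult (adjusted p 0.0264), and Eif2s3y passed in neither (adjusted p 0.0547 and 0.0643).

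**Figure D1:**
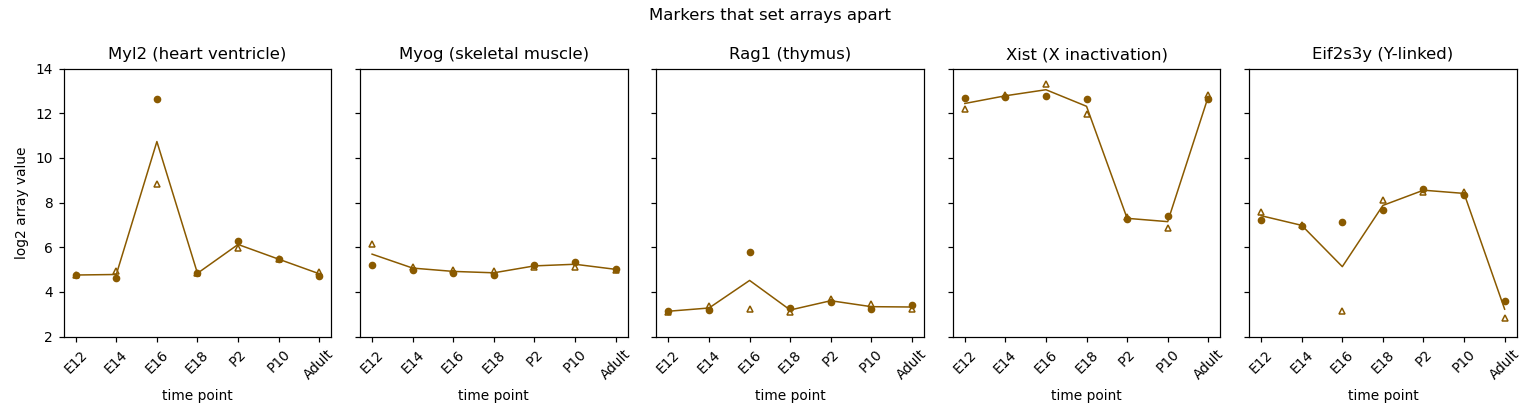
The log2 value of 5 marker genes (y axis) is plotted by time point (x axis), with a filled circle for replicate 1, an open triangle for replicate 2 and a line through the mean. Myl2 is at 12.63 on E16 replicate 1 and 8.84 on replicate 2, and Xist is between 6.88 and 7.41 on the 4 arrays of P2 and P10.

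The label was compared with the genes that define hyaline cartilage. Matn1, which encodes cartilage matrix protein and is a standard marker of tracheal cartilage, lay between 3.35 and 3.73 on all 14 arrays. Acan, which encodes the aggrecan core protein, had its highest time-point mean at 6.53, Comp, a pentameric binder of collagen fibrils, at 5.43, and Col9a2 at 6.19. Of the 10 genes, 6 had a mean above 7 at any age: Col2a1, Col9a1, Col9a3, Matn4, Hapln1 and Sox6. Over all genes, 11663 of 18193 did, a similar share. Because Matn1, Acan, Comp and Col9a2 stayed below 7, the values are given gene by gene and not as a measure of the amount of cartilage.

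Sequences upstream of the start were available for 7 of the 10 genes (14 promoters in RefSeq, assembly GRCm38.p6) and are printed for 4 of them, as the stretch before the outermost annotated start. Hapln1 and Col9a1 are shown because they fell most, Matn4 because it was the largest rise, and Matn1 because it is a standard marker of tracheal cartilage. They lie at chr13:89540386-89540528 (plus strand, Hapln1), chr1:24177360-24177588 (plus, Col9a1), chr2:164405161-164405410 (minus, Matn4) and chr4:130944135-130944384 (plus, Matn1). Capitals mark CAAAG on either strand (a CAAAG on the strand that is not printed appears here as CTTTG), the core letters within the Sox-type motif ACAAAG.
Hapln1: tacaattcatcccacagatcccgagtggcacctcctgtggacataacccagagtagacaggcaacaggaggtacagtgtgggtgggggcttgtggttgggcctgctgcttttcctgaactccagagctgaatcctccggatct
Col9a1: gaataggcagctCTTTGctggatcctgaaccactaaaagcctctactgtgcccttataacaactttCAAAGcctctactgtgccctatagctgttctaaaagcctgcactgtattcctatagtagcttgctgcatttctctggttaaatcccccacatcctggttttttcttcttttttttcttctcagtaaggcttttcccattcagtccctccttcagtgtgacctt
Matn4: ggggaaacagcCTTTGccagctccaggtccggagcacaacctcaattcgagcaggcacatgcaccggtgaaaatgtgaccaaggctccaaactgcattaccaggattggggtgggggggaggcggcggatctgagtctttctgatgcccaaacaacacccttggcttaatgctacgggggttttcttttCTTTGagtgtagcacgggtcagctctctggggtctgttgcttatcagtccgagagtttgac
Matn1: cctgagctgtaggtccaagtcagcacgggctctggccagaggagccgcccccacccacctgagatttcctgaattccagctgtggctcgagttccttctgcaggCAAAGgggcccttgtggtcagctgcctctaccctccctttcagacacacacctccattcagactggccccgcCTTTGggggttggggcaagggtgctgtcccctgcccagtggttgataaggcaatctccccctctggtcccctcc
CAAAG lay in 11 of the 14 promoters, from 6 of the 7 genes, and in 53.9% of all 32851 mouse promoters of the same length. The longer ACAAAG was in 5 promoters, all of Sox6, against 18.7% of all promoters, and AACAAT was in 1, against 10.7%. TATAAA, the letters of a TATA box, was in 2 promoters of Sox6, against 13.6% of all. The Hapln1 stretch printed here held none of these letters. These matches describe the sequence alone.

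Across the 7 ages, 4 of the 10 genes (Col2a1, Col9a1, Matn4 and Hapln1) were called dynamic, which here means that they passed the F test over all ages, reached a mean above 7 at some age, and spanned more than 1.2 between their highest and lowest mean. Over all genes 26.7% did. The F test alone was passed by 9 of the 10, against 73.2% of all genes, with Matn1 as the exception (adjusted p 0.0727). Col9a3 fell just short with a difference between highest and lowest mean of 1.1903. Col9a2 (1.1874) also missed the mean of 7, with 6.19 as its highest. The call also depended on the probe set. The representative Sox6 probe set spanned 0.95. Other Sox6 probe sets were dynamic, with spans of 2.02 and 1.69 and highest means of 7.74 and 7.16. The Sox6 probe set with a highest mean of 5.15 was not. The other Col9a1 probe set spanned 0.80 and was not dynamic. Nor was the Hapln1 probe set with a highest mean of 6.64.

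**Figure D2:**
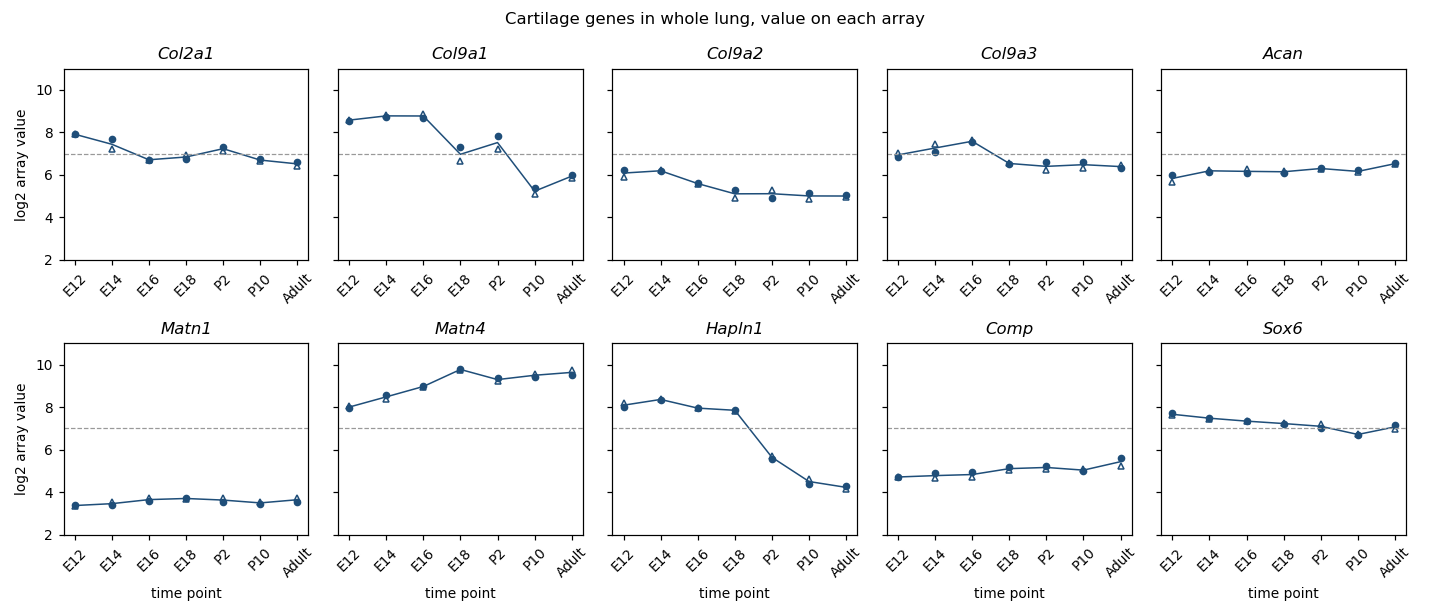
Each panel plots the log2 value of a gene (y axis) on each array by time point (x axis), with filled circles for replicate 1, open triangles for replicate 2, a line through the means and a dashed line at 7. Hapln1 drops from 7.87 and 7.82 at E18 to 5.56 and 5.71 at P2, Matn4 climbs to 9.79 and 9.74 at E18, and Matn1 stays between 3.35 and 3.73.

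Hapln1 encodes the link protein that fastens aggrecan to hyaluronan, and it showed the largest change of the set. It was at 8.01 and 8.17 at E12, 8.35 and 8.37 at E14, 7.94 and 7.96 at E16, 7.87 and 7.82 at E18, 5.56 and 5.71 at P2, 4.40 and 4.60 at P10, and 4.31 and 4.14 in Adult. All 8 embryonic arrays were above all 6 postnatal arrays. Between E18 and P2 it fell by 2.21 on the log2 scale (SE 0.10, adjusted p 3.70e-08), a 4.64-fold drop, and between P2 and P10 by a further 1.14 (SE 0.10, adjusted p 2.76e-05). Against E12, Adult fell by 3.86 (SE 0.10, adjusted p 2.64e-12). In the order of its levels, E14, E12, E16 and E18 did not pass between neighbours, and nor did P10 and Adult (adjusted p 0.0686). E16 did pass against E14, with a difference of -0.41 (SE 0.10, adjusted p 0.0156).

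The other 3 probe sets of Hapln1 had the same course at lower values. Their falls from E12 to Adult were 2.50, 2.79 and 2.63 on the log2 scale, and their falls from E18 to P2 were 1.71, 2.02 and 1.88, all passed. From E14 to E16 they differed by -0.77, -0.64 and -0.50 (adjusted p 0.000414, 0.00758 and 0.0191). The step from P2 to P10 differed among them. The third by level fell by 0.57 (adjusted p 0.0291), whereas the second differed by -0.19 (adjusted p 0.411) and the fourth by -0.42 (adjusted p 0.0776). The sex-linked Xist also changed between E18 and P2, and its part in the P2 step was not tested.

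Col9a1 encodes a chain of type IX collagen, which coats the type II collagen fibril. It was at 8.55 and 8.60 at E12, 8.74 and 8.81 at E14, 8.68 and 8.86 at E16, 7.30 and 6.63 at E18, 7.81 and 7.23 at P2, 5.39 and 5.08 at P10, and 6.02 and 5.86 in Adult. No step through E16 passed, and the gene then fell in 2 steps, by 1.80 on the log2 scale from E16 to E18 (SE 0.21, adjusted p 1.04e-05) and by 2.29 from P2 to P10 (SE 0.21, adjusted p 2.74e-05). Between these steps P2 was 0.55 above E18 without passing (adjusted p 0.0953), and the replicates were 0.67 apart at E18 and 0.59 apart at P2. From E12 to Adult it fell by 2.63 (SE 0.21, adjusted p 7.36e-08), or 6.21-fold.

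Its second probe set moved less. It was 0.73 lower at E18 than at E16 (adjusted p 0.000691) and 0.72 lower in Adult than at E12 (adjusted p 0.000375), but differed by only -0.21 from P2 to P10 (adjusted p 0.471). The small rise of the first probe set from P10 to Adult (0.71, SE 0.21, adjusted p 0.0213) was turned in the second (-0.10, adjusted p 0.668), and it was lost when P10 replicate 2 or either Adult array was left out. The E18 step was thus shared by both probe sets, and the P10 step was seen in 1 of them. Sex-linked RNA also changed from E16 to E18, and its part in this step was not tested.

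Col9a3, another type IX collagen chain, had its highest mean at E16. It was at 6.86 and 7.02 at E12, 7.08 and 7.44 at E14, 7.54 and 7.62 at E16, 6.53 and 6.55 at E18, 6.59 and 6.21 at P2, 6.63 and 6.34 at P10, and 6.33 and 6.45 in Adult. E16 was 0.64 above E12 (SE 0.15, adjusted p 0.00530, and 0.0519 without E12 replicate 1), and the gene then fell by 1.04 by E18 (SE 0.15, adjusted p 6.34e-05), the step in which sex-linked RNA also changed. Both E16 arrays were above all others, although E16 and E14 did not pass as different (0.32 apart, adjusted p 0.171), and the E18 to Adult arrays were all below the E12 arrays. A second probe set, below 7 at all ages with means from 3.39 at P10 to 5.75 at E16, showed this shape more steeply. It was 1.14 higher at E16 than at E12 (adjusted p 8.93e-06) and 2.01 lower at E18 than at E16 (adjusted p 1.76e-08). The third lay between 3.11 and 3.40 on all arrays.

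Col9a2, the remaining chain of type IX collagen, was below 7 on every array. It was between 5.92 and 6.25 on the E12 and E14 arrays, at 5.63 and 5.56 at E16, and between 4.87 and 5.30 from E18 on. It fell by 1.08 from E12 to Adult (SE 0.15, adjusted p 3.06e-05). The 3 chains, whose products make up 1 collagen molecule, thus shared a fall from E12 to Adult. Their highest means were at E14 for Col9a1 and Col9a2 and at E16 for Col9a3, and in none of them did the highest and the next highest mean pass as different (adjusted p 0.992, 0.838 and 0.171).

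Col2a1 encodes type II collagen, the main fibril of cartilage, and is read by a single probe set. It was at 7.91 and 7.92 at E12, 7.68 and 7.21 at E14, 6.72 and 6.71 at E16, 6.77 and 6.92 at E18, 7.33 and 7.14 at P2, 6.72 and 6.67 at P10, and 6.63 and 6.41 in Adult. Its largest step came earlier than those of Col9a1 and Col9a3. It fell by 0.73 from E14 to E16 (SE 0.14, adjusted p 0.00257) and was 2.30-fold lower at E16 than at E12 (adjusted p 2.50e-05), and from E16 to Adult it differed by -0.19 without passing. Both P2 arrays were above both E18 arrays, by 0.39 in the mean, without passing (adjusted p 0.0747), and the drop of 0.54 from P2 to P10 (adjusted p 0.0323) was lost when any 1 of the 4 arrays of that step was left out (adjusted p 0.0713 to 0.270). From E12 to Adult it fell by 1.40 (SE 0.14, adjusted p 7.47e-07).

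Matn4 was the only member to pass the dynamic selection with a rise. It encodes a matrilin, an adaptor of the pericellular matrix that, unlike Matn1, is also made in many tissues other than cartilage. It was at 7.94 and 8.06 at E12, 8.57 and 8.39 at E14, 9.01 and 8.93 at E16, 9.79 and 9.74 at E18, 9.38 and 9.21 at P2, 9.44 and 9.55 at P10, and 9.51 and 9.75 in Adult. All E18 and later arrays were above all earlier ones. The step from E16 to E18 was a rise of 0.80 (SE 0.11, adjusted p 4.63e-05), and Adult was 1.63 above E12 (SE 0.11, adjusted p 1.37e-08). The dip of 0.48 at P2 (adjusted p 0.00949) was lost without E18 replicate 1 (adjusted p 0.0675) or P2 replicate 2 (adjusted p 0.105). The earlier steps were also small, 0.48 from E12 to E14 (adjusted p 0.0280, lost without any 1 of the 4 arrays) and 0.49 from E14 to E16 (adjusted p 0.00756, lost without E14 replicate 2 or E16 replicate 1).

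Sox6, the transcription factor that works with Sox9 on cartilage genes and is also used in muscle and blood cells, fell slowly. It was at 7.70 and 7.62 at E12, 7.49 and 7.46 at E14, 7.34 and 7.34 at E16, 7.21 and 7.24 at E18, 6.99 and 7.20 at P2, 6.69 and 6.73 at P10, and 7.18 and 6.96 in Adult. From E12 to Adult it fell by 0.59 (SE 0.10, adjusted p 0.000132). The other 3 probe sets fell more, by 1.33, 1.23 and 0.95, and all 4 had their lowest mean at P10. Adult was above P10 in the first probe set by 0.36 (adjusted p 0.0162, and 0.167 without Adult replicate 1), in the second by 0.69 (adjusted p 0.000917) and in the third by 0.46 (adjusted p 0.00437), while the fourth differed by 0.05 (adjusted p 0.870). P10 and Adult differ in sex-linked RNA, which cannot be told apart from age in this step.

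**Figure D3:**
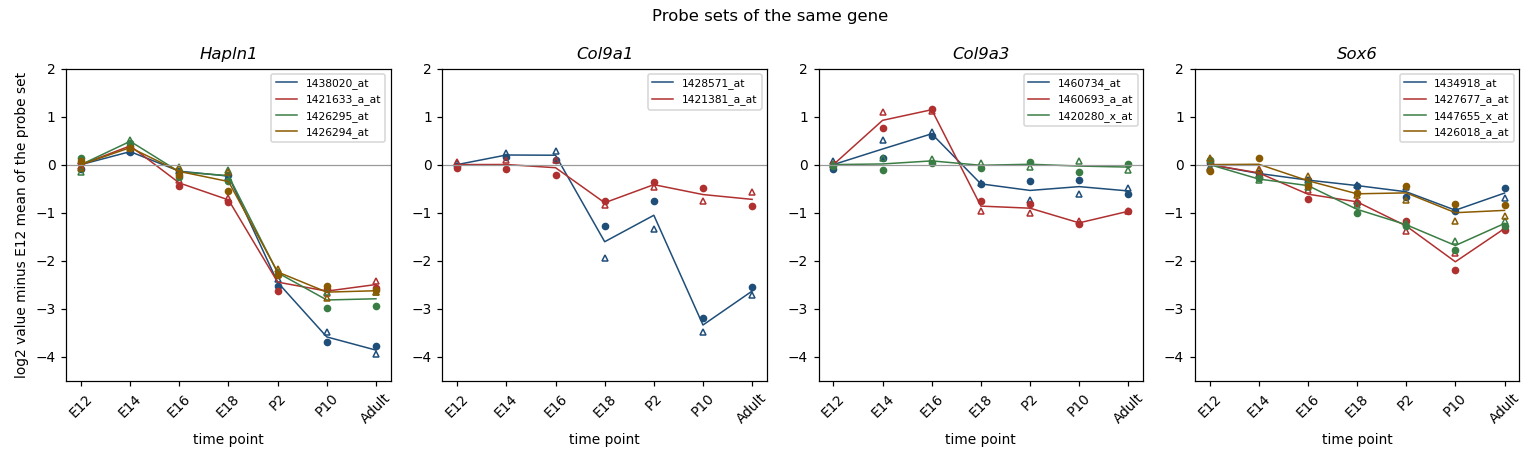
For each probe set of Hapln1, Col9a1, Col9a3 and Sox6, the log2 value minus that probe set's E12 mean (y axis) is plotted by time point (x axis), with filled circles for replicate 1, open triangles for replicate 2 and lines through the means. The 4 Hapln1 lines drop together at P2, and the Col9a1 probe sets part at P10, where the representative probe set falls by 2.29 from P2 and the other differs by -0.21.

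The remaining 3 genes were below 7 at all ages and were higher in Adult than at E12. Acan was at 5.98 and 5.69 at E12 and at 6.56 and 6.49 in Adult, a rise of 0.69 (SE 0.11, adjusted p 7.84e-05). Comp was at 4.70 and 4.73 at E12 and at 5.63 and 5.24 in Adult, a rise of 0.72 (SE 0.13, adjusted p 0.000264). Matn1 was at 3.38 and 3.35 at E12 and at 3.55 and 3.73 in Adult, 0.27 apart (SE 0.10, adjusted p 0.0329). This last call was lost without either E12 array or Adult replicate 2, after quantile normalization (adjusted p 0.0944) and after setting the array medians equal (adjusted p 0.0664).

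Over the set, Adult against E12 lung had 4 of the 10 genes higher, where 35% of all genes were higher, and 6 lower, where 30.2% of all genes were lower. The median difference of the 10 genes was -0.57 on the log2 scale, against 0.08 over all genes. Of the 6 lower genes, 5 had a mean above 7 at some age, and of the 4 higher genes 1 (Matn4) had. From E12 to E16, 3 genes were higher (Col9a3, Acan and Matn4; 15.5% of all genes) and 3 lower (Col2a1, Col9a2 and Sox6; 15.1% of all genes), with 1 lower gene left without E12 replicate 1 or without either E16 array. The Acan difference from E12 to E16 was 0.33, and it was 0.18 without E12 replicate 2 and 0.24 without E16 replicate 2. It did not pass after quantile normalization (0.29, adjusted p 0.0693). From E16 to Adult, 3 genes were higher (Acan, Matn4 and Comp; 31.4% of all genes) and 5 lower (Col9a1, Col9a2, Col9a3, Hapln1 and Sox6; 27.5% of all genes). Without E16 replicate 1, the array with the highest heart markers, Col9a1 was still lower by 2.92, Col9a3 by 1.23 and Hapln1 by 3.73, and Matn4 was higher by 0.70, all passed, while the Acan and Sox6 calls were lost. The lone E16 array is assumed in that fit to vary like the arrays of the other ages. Y-linked RNA also differed in Adult against E12, from E12 to E16 and from E16 to Adult, and its part was not tested.

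**Figure D4:**
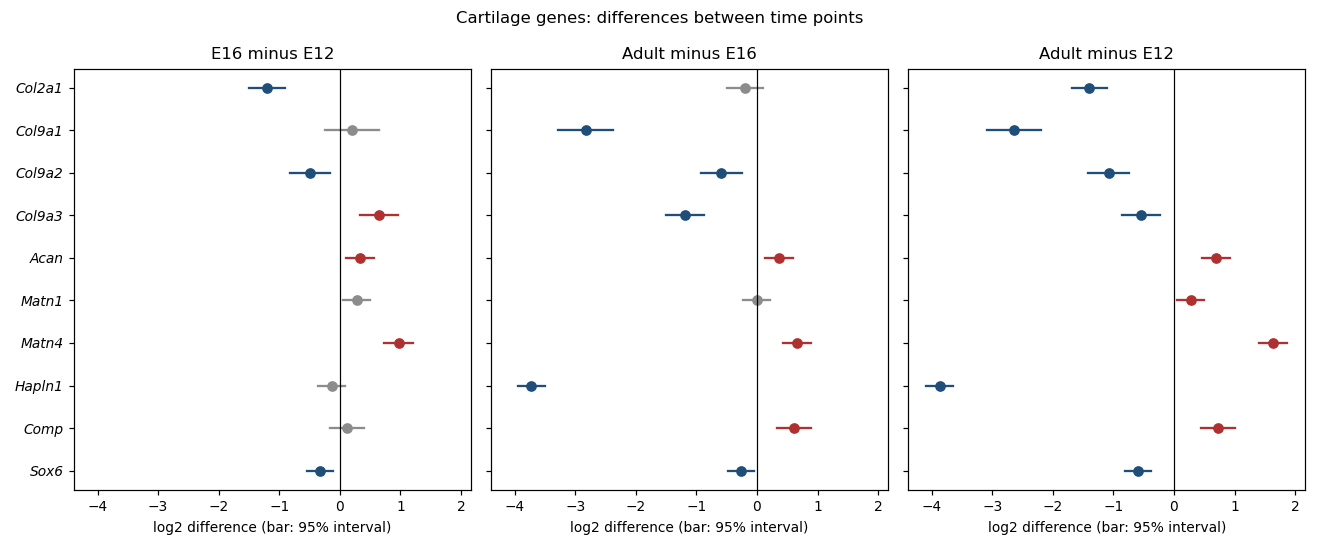
The difference in log2 value between ages (x axis, point, with its 95% interval as a bar) is plotted for each gene (y axis) in E16 minus E12, Adult minus E16 and Adult minus E12, in red where higher and passed, blue where lower and passed, and grey where not passed. Col2a1 is 2.30-fold lower at E16 than at E12 and differs by -0.19 from E16 to Adult without passing. Hapln1 and Col9a1 do not pass in E16 minus E12 (-0.14 and 0.20) and are lower in Adult minus E16 (-3.73 and -2.83). Steps within these spans are not shown.

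The steps between neighbouring ages held few changes in any 1 direction. From E12 to E14, 1 gene was higher (Matn4; 3.41% of all genes) and 0 lower (0.918% of all genes). From E14 to E16, 1 was higher (Matn4; 9.95% of all genes) and 3 lower (Col2a1, Col9a2 and Hapln1; 10.6% of all genes), of which Col2a1 alone kept its call whichever array of the step was left out. From E16 to E18, 1 was higher (Matn4; 24.8% of all genes) and 3 lower (Col9a1, Col9a2 and Col9a3; 21.6% of all genes), so all 3 chains of type IX collagen fell in the same step, with the Col9a2 call lost without either E16 array or E18 replicate 2. From E18 to P2, 0 genes were higher (8.58% of all genes) and 2 lower (Hapln1 and Matn4; 10% of all genes).

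From P2 to P10, ages at which all 4 arrays had low Xist, 0 genes were higher (4.82% of all genes) and 4 lower (Col2a1, Col9a1, Hapln1 and Sox6; 4.37% of all genes). The falls of Col9a1 and Hapln1 remained whichever array of the step was left out, and those of Col2a1 and Sox6 were lost without any 1 of them, which left 2. The other probe sets ordered these genes differently from P2 to P10. That of Col9a1 differed by -0.21 (adjusted p 0.471). Those of Hapln1 differed by -0.19, -0.57 and -0.42 (adjusted p 0.411, 0.0291 and 0.0776). Those of Sox6 differed by -0.75, -0.43 and -0.41 (adjusted p 0.00288, 0.0223 and 0.135). The Sox6 fall thus passed in further probe sets, and the Col9a1 fall did not. From P10 to Adult, 4 were higher (Col9a1, Acan, Comp and Sox6, against 16.8% of all genes) and 0 lower (14.9% of all genes). That count depended on 1 array, since 0 genes were higher without Adult replicate 1, and it was 2 without P10 replicate 1 or Adult replicate 2 and 1 without P10 replicate 2.

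The 10 genes did not share a course. Of their 45 pairs over the 14 arrays, 21 had a positive and 24 a negative Pearson r, and the median r was -0.21. In 5 pairs r was 0.8 or higher, with 0.85 for Col9a1 and Hapln1, 0.85 for Col9a1 and Sox6, 0.84 for Col9a2 and Sox6, 0.83 for Hapln1 and Sox6 and 0.80 for Col9a1 and Col9a2. In 2 pairs r was -0.8 or lower, both with Matn4, at -0.91 with Col9a2 and -0.82 with Col2a1. The arrays share age as their main difference, so these values describe courses over age.

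The genes outside the lists whose course was most like the mean of the 4 dynamic members, out of 4703 candidates over 14 arrays, were Polr1c, Piga, Alg11 and Igf2 (r 0.97 each), followed by Nadk2, Epha3, Homer2, Ttc6, Cdkn1c and Bambi (r 0.96 to 0.97). The mean followed Hapln1 (r 0.97) and Col9a1 (r 0.94) more than Col2a1 (r 0.62), and ran against Matn4 (r -0.65). Igf2, the imprinted fetal growth factor, went from 12.91 at E12 to 7.58 in Adult. With Matn4 left out of the mean, an alternative chosen after seeing the data, Alg11, Cldn4 and Piga came first (r 0.98 each).

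Of 10 measured transcription factors of chondrocytes, 5 were lower (30.2% of all genes) and 0 higher (35% of all genes) in Adult than at E12. Sox9, which is also made by the distal tip epithelium of the embryonic lung, was at 8.15 and 8.31 at E12, 8.70 and 8.47 at E14, 7.66 and 8.01 at E16, 7.92 and 7.29 at E18, 6.62 and 6.30 at P2, 6.54 and 6.34 at P10, and 6.06 and 5.77 in Adult. Every embryonic array was above every postnatal array, and the fall from E12 to Adult was 2.32 (SE 0.19, adjusted p 1.40e-07). Sox5, the partner of Sox6, fell by 0.42 over the same ages (SE 0.11, adjusted p 0.00571), and Trps1, a repressor in growth plate chondrocytes, fell by 1.43 (SE 0.10, adjusted p 1.56e-08).

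Of 18 further genes of the cartilage matrix, 8 were higher (35% of all genes) and 6 lower (30.2% of all genes) in Adult than at E12, with a median of 0.16 against 0.08 over all genes. Of the 18, 9 had a mean above 7 at any age, as had 11663 of all 18193 genes. From E16 to E18, 2 were higher (24.8% of all genes) and 7 lower (21.6% of all genes), a step in which sex-linked RNA changed as well and its part was not tested. Mia, a secreted protein of chondrocytes and also of other cells, was at 11.04 and 11.07 at E16 and at 8.33 and 8.48 at E18, a fall of 2.64 (SE 0.10, adjusted p 9.03e-10). Cytl1, a chondrocyte cytokine-like protein, fell by 2.49 in the same step (SE 0.16, adjusted p 5.17e-08) and was 2.64 higher in Adult than at P10 (SE 0.16, adjusted p 8.34e-08). Cnmd (chondromodulin, an inhibitor of vessel growth) was highest at E14, at 7.10 and 7.34, and fell by 0.98 from E16 to E18 (SE 0.21, adjusted p 0.00232). Col11a1, a chain of the type XI collagen at the core of the cartilage fibril, fell by 3.73 from E12 to Adult (SE 0.17, adjusted p 3.11e-10).

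Against these, 3 of the further matrix genes rose by over 2 on the log2 scale. Prelp, a leucine-rich repeat protein of basement membranes and connective tissue, went from 6.16 and 5.79 at E12 to 11.99 and 11.96 in Adult, a 63.8-fold rise (adjusted p 7.27e-13). Chad, a leucine-rich protein that binds collagen and cells, was at 5.82 and 5.88 at E12, 8.02 and 8.19 at E18, 6.76 and 7.00 at P10 and 9.13 and 8.70 in Adult, which was 3.06 above E12 (SE 0.14, adjusted p 3.00e-10). Cytl1 was 2.42 above E12 in Adult (SE 0.16, adjusted p 1.37e-08).

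**Figure D5:**
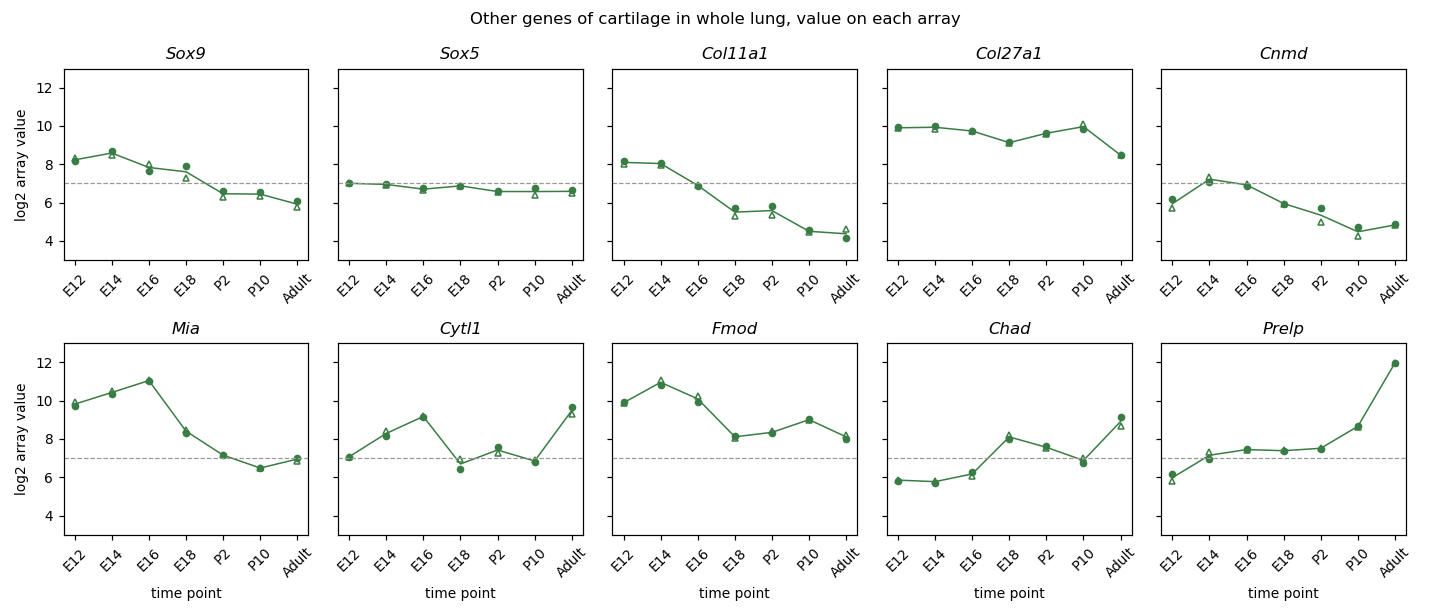
Each panel plots the log2 value (y axis) of Sox9, Sox5 or 1 of the 8 dynamic genes among the further cartilage matrix genes on each array by time point (x axis), with filled circles for replicate 1, open triangles for replicate 2, a line through the means and a dashed line at 7. Mia, Cytl1, Cnmd and Fmod drop between E16 and E18, while Prelp climbs to 11.99 and 11.96 in Adult.

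Genes of the signals that pattern airway cartilage were measured for 18 of 19, of which 5 were higher (35% of all genes) and 12 lower (30.2% of all genes) in Adult than at E12. Rspo2, a secreted enhancer of Wnt signaling needed for tracheal rings, fell by 5.13 (SE 0.23, adjusted p 2.28e-10), and 3.62 of this was present by E16 (adjusted p 1.30e-07). Pth1r, the receptor for parathyroid hormone-related protein, fell by 3.30 (SE 0.12, adjusted p 2.96e-11), and the Hedgehog target Gli1 was 7.99-fold lower (adjusted p 9.15e-11). Fgf18, a growth factor that acts on chondrocytes through Fgfr3 and that is also expressed in lung mesenchyme, was 1.48 higher at E16 than at E12 (SE 0.11, adjusted p 6.92e-07), and Fgfr3 was 1.28 higher (SE 0.13, adjusted p 6.90e-06).

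Enzymes and transporters that make chondroitin sulfate, the sugar chain of aggrecan, were measured for 8 of 9, with 6 higher (35% of all genes) and 2 lower (30.2% of all genes) in Adult than at E12. Papss2, which makes the sulfate donor, rose by 2.93 (SE 0.13, adjusted p 1.70e-10), and Chsy1, which lengthens the chain, fell by 0.93 (SE 0.10, adjusted p 2.61e-06). Of 6 proteases of cartilage matrix and their inhibitor, 4 were higher (35% of all genes) and 1 lower (30.2% of all genes) in the same comparison. Timp3, the inhibitor of aggrecan-cleaving enzymes, rose by 3.94 (SE 0.15, adjusted p 4.94e-11). The proteases Adamts1 (1.27, adjusted p 6.54e-08), Adamts5 (0.41, adjusted p 0.00468) and Mmp13 (0.81, adjusted p 0.000115, below 7 at all ages) were higher. Adamts4 differed by -0.30 without passing (adjusted p 0.0688). Adamts12 was 1.54 lower in Adult than at E12 (SE 0.17, adjusted p 1.90e-06), but its mean first went from 7.73 at E12 to 9.43 at P10.

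Of 8 measured genes of hypertrophic cartilage and bone, 2 were higher (Phex, and Col10a1 by 0.50, SE 0.18, adjusted p 0.0302) and 0 lower in Adult than at E12, where 35% and 30.2% of all genes were. Phex alone had a mean above 7, which 11663 of all 18193 genes had. Col10a1, the collagen of hypertrophic cartilage, lay between 4.58 and 5.55 on all arrays, Ihh, the signal of prehypertrophic chondrocytes, between 5.02 and 5.62, and Sp7, the osteoblast factor, between 5.83 and 6.25. Ibsp, of the same list, was not steady, with means from 4.21 at E18 to 5.26 at P2. It differed by -0.78 from E16 to E18 (adjusted p 7.77e-05) and by 1.05 from E18 to P2 (adjusted p 3.64e-05). From P10 to Adult the Ibsp difference was -0.57 (adjusted p 0.00172), and the cause of these steps was not tested. Phex, a membrane endopeptidase of bone that is also present in other tissues, was at 6.36 and 6.14 at E12, 10.22 and 10.48 at P10 and 6.69 and 6.69 in Adult. The thymus, thyroid and oesophagus lists had mean levels between 5.23 and 5.95 on all arrays. E12 replicate 2, the array with the highest skeletal muscle level, differed from replicate 1 by at most 0.33 in any of the 10 genes, and leaving it out together with E16 replicate 1, an alternative chosen after seeing the data, left Adult against E12 with Hapln1, Col9a1, Col9a2, Col2a1 and Sox6 lower and the Col9a3 difference at -0.47 (adjusted p 0.0563).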

How the data were processed

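The deposited log2 values of 14 arrays (7 ages, 2 arrays each) were used as given. Partek 6.4 made them, with Robust Multichip Average by the study's methods but GCRMA by the submitters' processing notes, and which is not known; background correction sets how far low values are compressed. Arrays carry no read depth, and their number limits the precision. The 64 control probe sets were left out of 45101, which left 45037, of which 34945 had 1 symbol, 932 several and 9160 none; 34741 were matched by Entrez identifier in a RefSeq gene table and 0 were renamed.

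In R 4.3.3 with limma 3.58.1, a mean for each age was fitted to all probe sets (residual df 7, prior df 6.04). The moderated F test and 9 contrasts (Adult minus E12, the 6 steps between neighbouring ages, E16 minus E12 and Adult minus E16) were adjusted by Benjamini-Hochberg over all probe sets. The script was tested on simulated data. Named genes were the 10 cartilage genes, members of the gene lists, and the 10 genes of most similar course; the genes and lists were chosen with earlier results of these data known. Of the 4 promoter motifs, CAAAG was added after seeing the data. Promoters reached 250 bases before and 50 after a start. Alternatives were quantile normalization, equal array medians, a variance trend, ANOVA without moderation, a highest mean above 7, the second or mean probe set, a replicate block, and leaving out each array. Leaving out E12 replicate 2 and E16 replicate 1 together was added after seeing the data.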

Additional observations from a re-analysis of the deposited data

How the results depend on the processing

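Of 602 values with 1 array left out, 542 kept direction and call, 60 kept direction and lost the call, and 0 turned. Of 307 values under other settings, 289 kept both, 17 lost the call and 1 turned, the Col9a1 difference of Adult minus P10, which was -0.10 in the second probe set. With 1 array left out, the lowest and highest numbers of genes were 0 to 1 higher and 0 to 1 lower from E12 to E14, 0 to 1 higher and 1 to 3 lower from E14 to E16, 0 to 1 higher and 1 to 2 lower from E18 to P2, 2 to 4 lower from P2 to P10, 0 to 4 higher and 0 to 1 lower from P10 to Adult, and 1 to 3 lower from E12 to E16.

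Testing only probe sets with a highest mean above 7, which leaves 6 of the 10 genes, gave 1 higher in Adult than E12, 1 higher in P2 than E18, 2 higher and 1 lower in Adult than P10, and 1 higher in Adult than E16. The second probe set gave 2 higher from E12 to E14 and 2 lower from P2 to P10. The mean of all probe sets gave 3 higher from E12 to E14 and 1 higher from E18 to P2. ANOVA without moderation gave 0 higher from E12 to E14, 2 lower from P2 to P10 and 2 higher from P10 to Adult. Without E12 replicate 2 and E16 replicate 1 together, 0 were higher from E12 to E14, 0 higher and 1 lower from E14 to E16, 2 lower from P2 to P10 and 1 lower from E12 to E16. Where no construction shows it, the cause was not tested. The shares of all genes given earlier belong to the main fit and were not counted under these settings or with 1 array left out. The counts here therefore show only how the calls depend on the settings.

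Replicates of the same number did not deviate together (21 pairs of ages, r from -0.18 to 0.08, 0 over 0.1), so the numbers were not taken to pair the arrays. A fit with the replicate number as a block lost 1 call, Acan in E16 minus E12 (0.33, adjusted p 0.0512), and left 4 higher and 6 lower genes in Adult minus E12.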
